A study of Mus musculus with 13 samples.

Results

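The genes that detect double-stranded RNA and pass that signal on were followed in whole brain of mice carrying a point mutation, P195A, in Adar. Adar encodes ADAR1, which edits double-stranded RNA by deaminating adenosine into inosine. The P195A change lies in the Z-alpha domain, which belongs to the interferon-inducible p150 isoform and binds nucleic acid in the left-handed Z form. The 8 genes were taken by name from the deposited gene table as the cytosolic and endosomal sensors of double-stranded RNA and their adaptors: Ifih1, Ddx58, Dhx58, Ddx60, Trim25, Mavs, Tlr3 and Ticam1. They are 8 of 54307 gene rows, and 8 of 8 passed the filter on low counts that left 19962 genes for testing.

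All animals were C57BL/6, and the 13 libraries came from 4 Adar genotypes. Wild type was represented by 3 animals, 2 females and 1 male, of which 2 were 48 days old and the male 74 days old. P195A/+ animals, with 1 mutant and 1 wild-type allele, numbered 3 (2 females, 1 male) and were 43 days old. P195A/P195A animals, with 2 mutant alleles, numbered 4 (3 females, 1 male), 2 of them 42 and 2 of them 48 days old. P195A/- animals, with 1 mutant allele opposite a null allele, numbered 3 (2 females, 1 male) and were 42 days old. The short genotype label for this last group was used, because the longer label writes P195A on both sides beside AdarKO/+ and could not be reconciled with it. The labels name no tissue-specific driver, and the tissue was snap-frozen whole brain, so each library mixes all brain cell types. In such bulk RNA, fewer cells of a type and less RNA per cell cannot be told apart.

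RIG-I (encoded by Ddx58) and MDA5 (encoded by Ifih1) are cytosolic helicases that bind double-stranded RNA and, through their caspase recruitment domains, engage MAVS on the mitochondrial surface. LGP2 (encoded by Dhx58) has the helicase but no recruitment domain and modulates the other receptors. TLR3 detects double-stranded RNA inside endosomes and signals through the adaptor TRIF, the product of Ticam1. Both routes lead to type I interferon, and several of the genes, among them Ifih1, Ddx58, Dhx58 and Ddx60, are themselves interferon-induced. ADAR1 edits cellular double-stranded RNA, which otherwise can be bound by MDA5.

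Promoter sequence is shown for the 3 members whose window held a motif of the interferon-response type. The part of these motifs in the levels described below was not tested. The windows run from 250 bases before to 50 bases after the start of the gene in RefSeq (GRCm38.p6), which had an entry for 7 of the 8 genes, all but Dhx58. Capitals mark every match, on either strand, to GAAANNGAAA or GAAANGAAA. The Ifih1 window is chr2:62646206-62646505 on the minus strand, that of Ddx58 is chr4:40239776-40240075 on the minus strand, and that of Ddx60 is chr8:61927837-61928136 on the plus strand.
Ifih1: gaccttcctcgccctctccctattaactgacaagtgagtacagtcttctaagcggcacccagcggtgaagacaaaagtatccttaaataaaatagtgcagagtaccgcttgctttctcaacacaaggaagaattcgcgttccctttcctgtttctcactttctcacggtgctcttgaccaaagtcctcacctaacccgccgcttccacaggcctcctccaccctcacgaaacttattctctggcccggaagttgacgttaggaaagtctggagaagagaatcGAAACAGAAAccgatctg
Ddx58: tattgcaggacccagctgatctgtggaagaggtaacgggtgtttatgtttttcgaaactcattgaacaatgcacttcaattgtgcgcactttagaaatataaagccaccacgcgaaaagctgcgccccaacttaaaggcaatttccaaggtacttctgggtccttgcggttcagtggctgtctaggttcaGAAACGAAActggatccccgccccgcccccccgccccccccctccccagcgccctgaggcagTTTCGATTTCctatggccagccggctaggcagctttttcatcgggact
Ddx60: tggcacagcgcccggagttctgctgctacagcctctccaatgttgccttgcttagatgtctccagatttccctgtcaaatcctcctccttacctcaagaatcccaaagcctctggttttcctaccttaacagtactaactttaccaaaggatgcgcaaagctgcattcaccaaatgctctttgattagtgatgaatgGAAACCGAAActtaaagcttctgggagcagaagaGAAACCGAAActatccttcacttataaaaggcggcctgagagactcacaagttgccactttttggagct
Ifih1 held 1 match, GAAACAGAAA, whose first base lay at position 33 after the start. Ddx58 held GAAACGAAA 60 bases before the start and, on the opposite strand, GAAATCGAAA at position 3 after it, which reads TTTCGATTTC in the sequence as printed. Ddx60 held GAAACCGAAA in 2 places, 53 and 19 bases before the start. None of the windows of Trim25, Mavs, Tlr3 and Ticam1 held either motif or TTCNNNGAA, a motif of the STAT type. Of 32851 mouse promoters of the same 300 bases, 3.44% held GAAANNGAAA, 3.17% GAAANGAAA and 8.30% TTCNNNGAA. A match describes the letters only, and the motifs were chosen with the sequences in view.

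Library totals ran from 13539148 to 22399005 estimated counts. The mutated gene itself, Adar, stood at 180 ± 13.3 CPM (SD, n = 3) in wild type, 240 ± 6.63 (n = 3) in P195A/+, 323 ± 28.6 (n = 4) in P195A/P195A and 201 ± 4.28 (n = 3) in P195A/-. CPM is the gene's count relative to the library total, as scaled by the trimmed mean of M-values (TMM). Adar thus stood highest in P195A/P195A, and P195A/-, which also carries a null allele, stood below P195A/P195A and above the wild-type mean. The cause of these levels was not tested. Neuronal markers summed to between 3900 and 4710 CPM in every library, and 4 liver markers to at most 0.473 CPM. Replicates 2 and 3 of P195A/P195A stood at opposite ends of the first principal component, and replicate 3 of P195A/- had 1.56% mitochondrial counts against 0.457% to 0.79% elsewhere. Differences below were tested with edgeR's quasi-likelihood test over all 13 libraries, with Benjamini-Hochberg adjustment over 19962 genes and a threshold of 0.05. The comparisons with wild type share the 3 wild-type animals, and the others also share groups. Each animal gave 1 library, so p-values reflect the spread between animals.

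None of the 8 genes passed the test in any of 6 pairwise comparisons of genotypes, which gives 48 tests with a lowest adjusted p of 0.323 (edgeR). Over all genes, 0.01% passed for P195A/+ against wild type, 0.0501% for P195A/P195A against wild type and 0.0351% for P195A/- against wild type. The corresponding shares were 0.0401% for P195A/- against P195A/P195A, 0.0301% for P195A/- against P195A/+ and 0.02% for P195A/P195A against P195A/+. The count of 0 members is near these shares, and what follows describes levels, their spread and the intervals around each difference. Unadjusted p fell under 0.05 in 6 of the 48 tests: Dhx58 and Ifih1 in 2 comparisons each, Ddx58 and Ddx60 in 1 each. Over all genes the unadjusted p was under 0.05 for 10.6% in P195A/- against wild type, for 5.89% in P195A/P195A and for 4.48% in P195A/+ against the same animals. It was under 0.05 for 6.82% in P195A/- against P195A/P195A, 11.5% in P195A/- against P195A/+ and 5.86% in P195A/P195A against P195A/+. With limma-voom 0 members passed in each comparison. DESeq2 gave no adjusted p for any of the 8 members in P195A/- against wild type, nor for 6 of 8 in P195A/- against P195A/+, and passed 0 of those with an adjusted p.

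**Figure D1:**
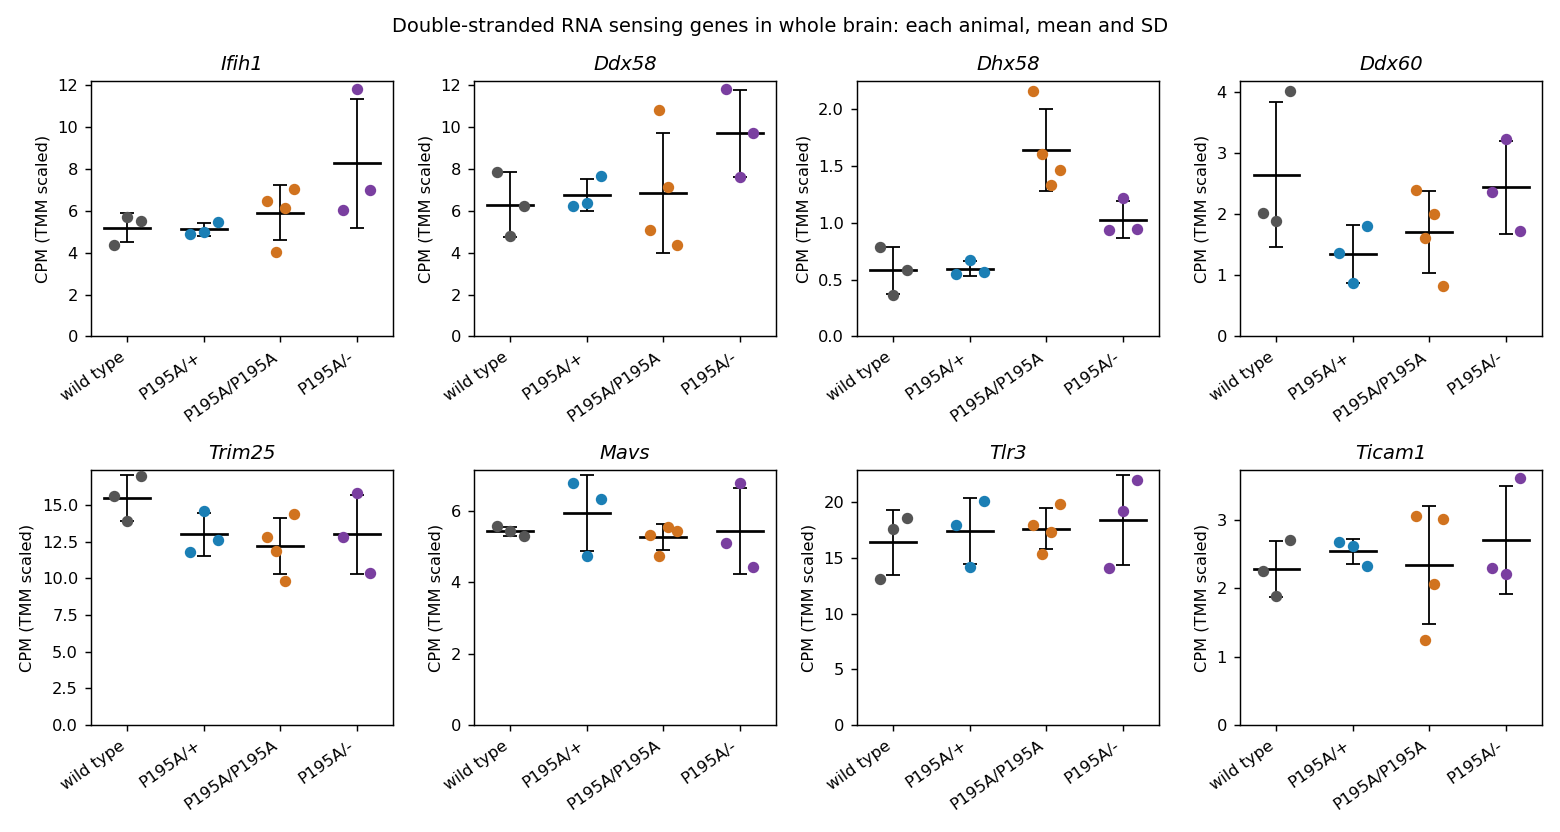
CPM (vertical axis, TMM scaled, from 0) of each gene by genotype, with each point 1 animal, the bar the mean and the whisker the SD. Dhx58 in P195A/P195A (1.33 to 2.16) and P195A/- (0.934 to 1.22) lay above all animals with a wild-type allele (0.368 to 0.786), and none of the other 7 genes separated in this way.

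Dhx58 (ENSMUSG00000017830.16, chr11:100694884-100704271, minus strand) was the member with the clearest separation by genotype and also the one with the fewest counts. In the 3 wild-type animals it stood at 0.786, 0.368 and 0.587 CPM, and in P195A/+ at 0.546, 0.677 and 0.571 CPM. The P195A/P195A animals had 2.16, 1.61, 1.33 and 1.47 CPM, and the P195A/- animals 0.934, 1.22 and 0.944 CPM. Wild type and P195A/+ overlapped, P195A/- lay above both, and P195A/P195A lay above P195A/-, with no overlap between these steps. Behind these levels are 6.7 to 14.0 estimated counts per library in the first 2 genotypes, 15.4 to 20.4 in P195A/- and 21.5 to 36.2 in P195A/P195A.

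The fitted log2 difference of Dhx58 from wild type was 1.49 (SE 0.366, 95% interval 0.71 to 2.27) in P195A/P195A. Its edgeR p was 0.000906 unadjusted and 0.694 adjusted, so it did not pass over all genes. Higher ranges without overlap were seen for 2.69% of all genes in this comparison. Against P195A/+, the P195A/P195A difference was 1.44 (SE 0.364, interval 0.67 to 2.21, adjusted p = 0.425), and 2.67% of all genes lay higher without overlap. For P195A/- the log2 difference was 0.83 from wild type (SE 0.392, interval -0.01 to 1.66, adjusted p = 0.476) and 0.78 from P195A/+ (SE 0.39, adjusted p = 0.469). In these comparisons 9.59% and 8.37% of all genes, respectively, lay higher without overlap, so such a step was common. The P195A/- animals stood below P195A/P195A by a log2 difference of -0.66 (SE 0.35, interval -1.40 to 0.08, adjusted p = 0.785), where 4.00% of all genes lay lower without overlap.

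Taken across alleles, the 7 animals without a wild-type allele had 0.934 to 2.16 CPM of Dhx58 and the 6 with at least 1 had 0.368 to 0.786 CPM. Of 19962 genes, 26 lay higher in this way (0.13%) and 34 lower (0.17%), and Dhx58 was the only one of the 8 members among them. This division was read off the values and has no test. Weaning weight divided the animals the same way, at 6.4 to 8.4 g against 9.0 to 10.7 g, and its part in the result was not tested. The 8 markers of olfactory bulb and neuroblasts also stood apart in P195A/P195A, summing to 129 to 150 CPM against 87.0 to 108 CPM in wild type, 79.2 to 83.2 CPM in P195A/+ and 83.9 to 96.3 CPM in P195A/-. The 7 astrocyte markers summed to 6880 to 7720 CPM in P195A/P195A and 6840 to 7530 CPM in P195A/-, below the 7800 to 8540 CPM of wild type, while the 7680 to 8290 CPM of P195A/+ overlapped both wild type and P195A/P195A. The part of either in the Dhx58 levels was not tested. Age differed as well: with the 48-day animals only, 2 of each genotype, the P195A/P195A difference from wild type was 1.27 (unadjusted p = 0.0536, adjusted p = 1.0, edgeR). An antisense gene, Dhx58os, shares 141 exon bases with Dhx58, and it had at most 1.0 estimated count in any P195A/P195A or P195A/- library and at most 5.0 in the others.

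Ifih1 (ENSMUSG00000026896.15, chr2:62595798-62646255, minus strand), which encodes the sensor MDA5, had its highest levels in P195A/-. It stood at 4.38, 5.68 and 5.51 CPM in wild type and at 4.91, 4.98 and 5.47 CPM in P195A/+. P195A/P195A animals had 6.47, 4.01, 6.14 and 7.02 CPM, and P195A/- animals 6.04, 11.8 and 6.99 CPM. The P195A/- animals lay above all wild-type and P195A/+ animals, the lowest by a small margin, while they overlapped P195A/P195A. Replicate 2 of P195A/-, at 11.8 CPM, was higher than any other library.

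The log2 difference of Ifih1 in P195A/- was 0.67 from wild type (SE 0.258, interval 0.12 to 1.22), with an edgeR p of 0.0198 unadjusted and 0.364 adjusted. In this comparison 9.59% of all genes lay higher without overlap and 10.6% had an unadjusted p under 0.05. From P195A/+ the difference was 0.69 (SE 0.259, interval 0.14 to 1.24, unadjusted p = 0.0168, adjusted p = 0.323, edgeR), where 8.37% of genes lay higher without overlap and 11.5% had an unadjusted p under 0.05. Without P195A/- replicate 2, the difference from wild type was 0.32 (unadjusted p = 0.214, adjusted p = 0.708, edgeR), and that from P195A/+ was 0.34 (unadjusted p = 0.188, adjusted p = 0.685). Among marker sums, 7 oligodendrocyte markers stood at 6860 to 7300 CPM in P195A/- against 5690 to 6410 CPM in wild type, 6200 to 7500 CPM in P195A/+ and 5790 to 6400 CPM in P195A/P195A. The 8 neuronal markers stood at 3900 to 4400 CPM in P195A/- against 4410 to 4610 CPM in wild type, 3990 to 4340 CPM in P195A/+ and 3900 to 4710 CPM in P195A/P195A. The part of these sums in the levels of Ifih1, or of the interferon-stimulated genes described below, was not tested. The summed level of 10 microglial markers in P195A/- ran from 251 to 276 CPM, against 258 to 267 CPM in wild type, and to 202 to 339 CPM in P195A/P195A.

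Ddx58 (ENSMUSG00000040296.16, chr4:40203773-40239828, minus strand), which encodes RIG-I, varied widely within genotypes. Wild-type animals had 7.86, 4.78 and 6.23 CPM, P195A/+ animals 6.22, 6.38 and 7.66 CPM, P195A/P195A animals 5.09, 10.8, 7.12 and 4.36 CPM, and P195A/- animals 11.8, 7.63 and 9.72 CPM. The highest mean was that of P195A/-, but its lowest animal lay below the highest wild-type animal, and P195A/P195A spanned nearly the whole range. The log2 difference of P195A/- from wild type was 0.62 (SE 0.292, interval 0.01 to 1.24, unadjusted p = 0.048, adjusted p = 0.466, edgeR). For P195A/P195A the difference from wild type was 0.12 (SE 0.276), and it was -0.18 without replicate 2 and -0.42 without replicates 2 and 3, the pair at the ends of the first component. In P195A/- against P195A/P195A the value without that pair was 1.04 (unadjusted p = 0.000854, adjusted p = 0.424, edgeR), against 0.51 with all libraries. This setting was added after the data were seen. The pair left out held the highest Ddx58 levels of P195A/P195A, 10.8 and 7.12 CPM, so only the animals at 5.09 and 4.36 CPM remained.

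Ddx60 (ENSMUSG00000037921.16, chr8:61928087-62038244, plus strand) encodes an interferon-induced helicase described as a co-factor of the RIG-I-like receptors. It stood at 2.02, 1.89 and 4.02 CPM in wild type, 1.36, 0.870 and 1.81 CPM in P195A/+, 2.40, 1.61, 2.01 and 0.826 CPM in P195A/P195A, and 2.36, 3.23 and 1.72 CPM in P195A/-. P195A/+ lay below wild type without overlap, by a small margin, and the other genotypes overlapped wild type. The log2 difference for P195A/+ was -0.98 (SE 0.422, interval -1.87 to -0.08, unadjusted p = 0.0343, adjusted p = 0.999, edgeR), where 6.32% of genes lay lower without overlap and 4.48% had an unadjusted p under 0.05. Without the 74-day wild-type male, the highest animal, it was -0.53 (unadjusted p = 0.253, edgeR). The P195A/- difference from wild type was -0.13 with all libraries and 0.32 without that male.

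Trim25 (ENSMUSG00000000275.17, chr11:88999376-89020293, plus strand) encodes a ubiquitin ligase known for modifying RIG-I. It stood at 15.6, 13.9 and 17.0 CPM in wild type, 11.8, 14.6 and 12.6 CPM in P195A/+, 12.8, 11.9, 9.82 and 14.4 CPM in P195A/P195A, and 12.8, 15.8 and 10.4 CPM in P195A/-. All 3 mutant genotypes had lower means than wild type and overlapped it. The log2 differences from wild type were -0.26 in P195A/+, -0.34 in P195A/P195A (SE 0.166, interval -0.70 to 0.01, unadjusted p = 0.055, edgeR) and -0.25 in P195A/-.

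Mavs, Tlr3 and Ticam1 showed no separation by genotype. Mavs (ENSMUSG00000037523.14, chr2:131234063-131248025, plus strand), the mitochondrial adaptor shared by the cytosolic receptors, ran from 4.44 to 6.77 CPM over all libraries. Its means lay between 5.26 ± 0.357 CPM (n = 4, P195A/P195A) and 5.94 ± 1.07 CPM (n = 3, P195A/+), and 5.42 ± 0.139 CPM (n = 3) in wild type. Its log2 differences from wild type were 0.13, -0.04 and 0.00 in P195A/+, P195A/P195A and P195A/-, and the 95% interval of the last was -0.44 to 0.45.

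Tlr3 (ENSMUSG00000031639.13, chr8:45395665-45411080, minus strand), the endosomal receptor, ran from 13.1 to 22.0 CPM over all libraries. Its means were 16.4 ± 2.91 CPM in wild type, 17.4 ± 2.98 CPM in P195A/+, 17.6 ± 1.85 CPM in P195A/P195A and 18.4 ± 4.02 CPM in P195A/- (SD, n = 3, 3, 4 and 3). The genotypes overlapped throughout, and the largest difference from wild type, that of P195A/-, was 0.17 on the log2 scale (interval -0.23 to 0.56). Ticam1 (ENSMUSG00000047123.9, chr17:56269319-56276786, minus strand), which encodes TRIF, ran from 1.24 to 3.61 CPM, with both ends in animals without a wild-type allele. Its means were 2.28 ± 0.41 CPM in wild type and 2.70 ± 0.786 CPM in P195A/- (SD, n = 3 each), a log2 difference of 0.24 (interval -0.46 to 0.94). An antisense gene, Gm45542, shares 381 exon bases with Tlr3 and was listed at 0 in every library.

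**Figure D2:**
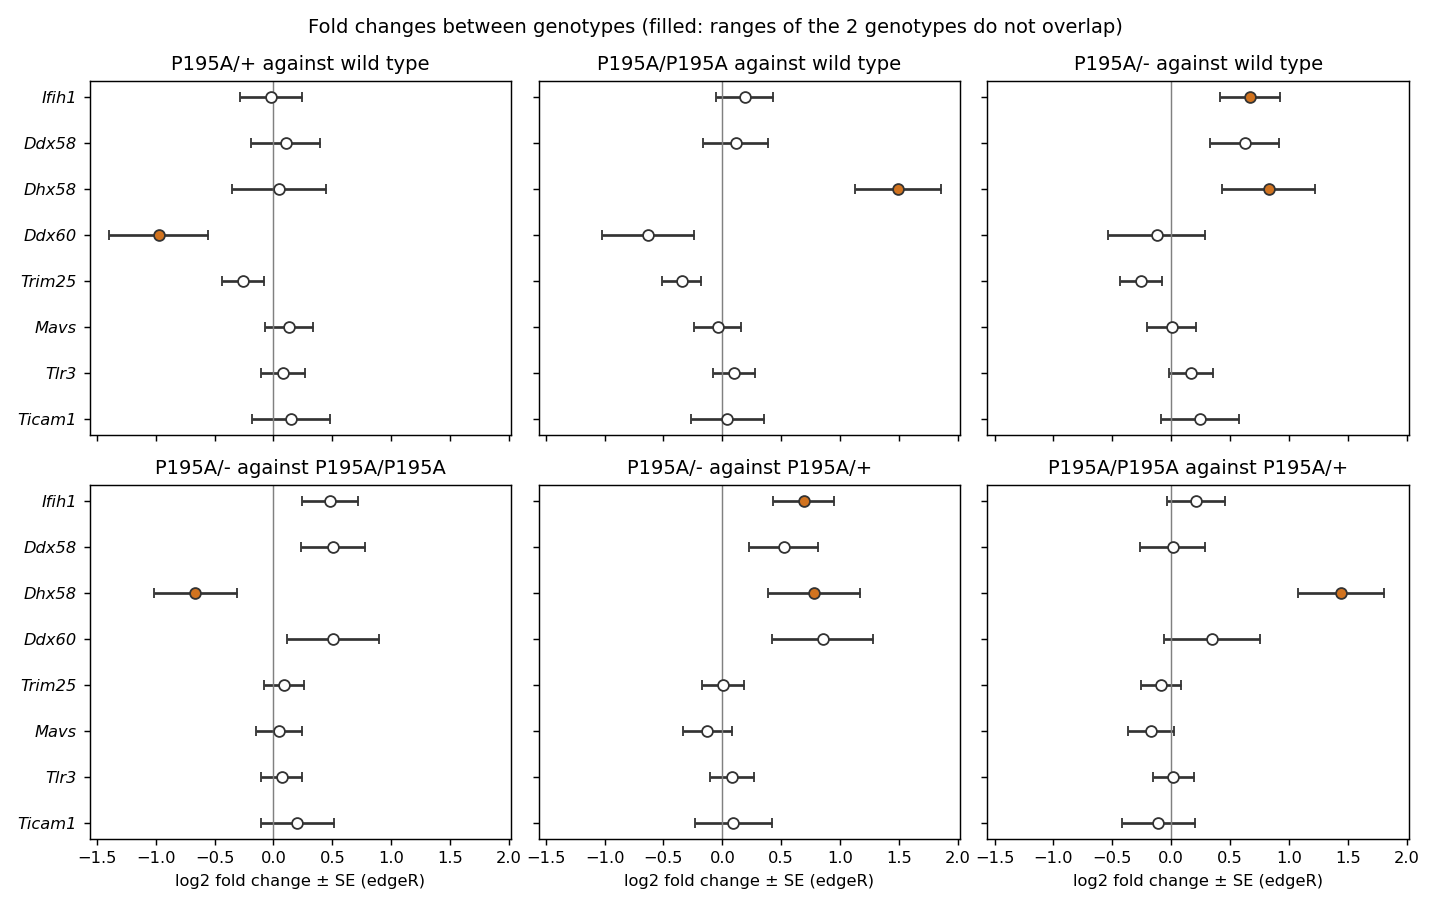
Fitted log2 fold change (horizontal axis, point and SE) of each gene in each of 6 genotype comparisons, first genotype minus second, with filled points where the ranges of the 2 genotypes did not overlap. The Dhx58 point at 1.49 in P195A/P195A against wild type is the farthest from 0, and none of the 48 differences passed the adjusted threshold.

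Over the 8 members, the median log2 difference from wild type was 0.20 in P195A/- (all genes tested 0.02). It was 0.07 in P195A/P195A (all genes 0.01) and 0.06 in P195A/+ (all genes 0.00). The median was 0.31 for P195A/- against P195A/+ (all genes 0.02), 0.15 for P195A/- against P195A/P195A (all genes 0.00) and 0.01 for P195A/P195A against P195A/+ (all genes 0.01). Against wild type, 6 of 8 members lay above 0 in P195A/-, and 5 of 8 in each of the other 2 genotypes. Ranges without overlap occurred in 8 of the 48 member comparisons, 6 higher and 2 lower. The share of all genes without overlap in either direction was, against wild type, 11.9% for P195A/+, 6.48% for P195A/P195A and 20.1% for P195A/-. It was 6.64% for P195A/- against P195A/P195A, 18.1% for P195A/- against P195A/+ and 5.32% for P195A/P195A against P195A/+.

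The members also differ in abundance, which can be compared only per length. Divided by exon length and averaged over the 13 libraries, Tlr3 stood highest at 3.35 ± 0.507 CPM per kilobase (SD), followed by Trim25 at 2.32 ± 0.37 and Mavs at 1.64 ± 0.219. Ddx58 had 1.04 ± 0.321, Ticam1 0.821 and Ifih1 0.748 ± 0.237 CPM per kilobase. Dhx58, at 0.31 ± 0.158, and Ddx60, at 0.232 ± 0.101, were lowest. Their order differed by genotype: Dhx58 and Ddx60 had 0.177 and 0.305 CPM per kilobase in wild type, and 0.501 and 0.197 in P195A/P195A. Ddx58, Ticam1 and Ifih1 lay within each other's spread, and so did Dhx58 and Ddx60. The endosomal receptor was thus more abundant per length than the cytosolic receptors, and its adaptor Ticam1 less abundant than Mavs.

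**Figure D3:**
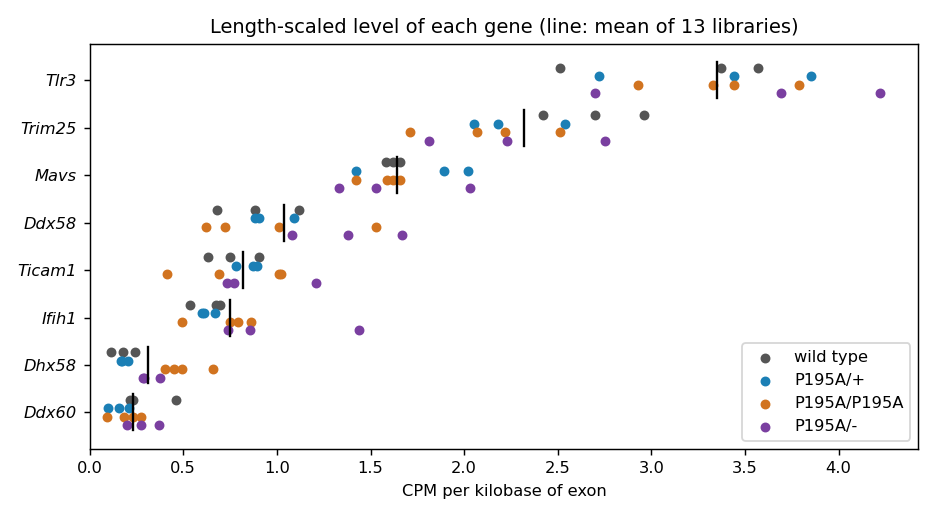
CPM per kilobase of exon (horizontal axis, from 0) of each gene, with each point 1 library coloured by genotype and the black line the mean of 13 libraries. Tlr3 lies highest with a mean of 3.35, and Ddx60 lowest with 0.232, although in wild type alone Dhx58 (0.177) is lower than Ddx60 (0.305).

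The genes around the 8 members were read from 6 lists, which share some genes. Irf7 is in both the signalling list and the interferon-stimulated list. Eif2ak2, Oas1a, Oas2, Oasl2 and Zbp1 are in both the list of other binders of double-stranded RNA and the interferon-stimulated list. Among 27 measured co-factors and regulators of the cytosolic receptors, none passed in any of the 6 comparisons, and the median log2 difference of P195A/- from wild type was -0.06, with 0 higher and 2 lower at an unadjusted p under 0.05. The genes of smallest p there were Cyld, a deubiquitinase, at -0.17 (adjusted p = 0.371), Mex3c at -0.20 (adjusted p = 0.441) and Ppp1cc, a phosphatase subunit, at -0.16 (adjusted p = 0.485, edgeR). Among 28 genes that carry the signal from MAVS and TRIF to IRF3 and NF-kB, none passed, with a median of 0.01 and, at an unadjusted p under 0.05, 2 higher and 1 lower in P195A/- against wild type. Irf7, an interferon-induced transcription factor, had 2.64 ± 0.562 CPM in P195A/- and 1.16 ± 0.214 CPM in wild type (SD, n = 3 each), a log2 difference of 1.18 (SE 0.407, adjusted p = 0.314, edgeR). Tax1bp1, an adaptor for the deubiquitinase A20, stood at -0.39 (adjusted p = 0.246) and Ikbkb, a kinase of the NF-kB route, at 0.47 (adjusted p = 0.255, edgeR).

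Among 18 measured genes of the TLR3 route and of other nucleic acid Toll-like receptors, none passed, the median in P195A/- against wild type was 0.05, and 1 gene had an unadjusted p under 0.05. That gene was Unc93b1. Unc93b1, the chaperone that takes these receptors to endosomes, had 6.84 ± 1.23 CPM in P195A/- and 4.55 ± 0.0704 CPM in wild type (SD, n = 3 each), a log2 difference of 0.59 (adjusted p = 0.34, edgeR). It had 6.96 ± 1.07 CPM (n = 4) in P195A/P195A, 0.61 above wild type on the log2 scale (unadjusted p = 0.00814, not past the adjusted threshold, edgeR). Ripk3 stood at -2.12 in P195A/- (SE 1.21, adjusted p = 0.558) on 0.463 CPM in wild type, and Slc15a4 at -0.33 (adjusted p = 0.571, edgeR).

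Of 28 measured other binders of double-stranded RNA, whose median in P195A/- against wild type was -0.02, 1 passed in any comparison. It was Adar, which rose in P195A/P195A against wild type by 0.84 on the log2 scale (SE 0.0775, adjusted p = 5.91e-05, edgeR). It was lower in P195A/- than in P195A/P195A, with a log2 difference of -0.68 (adjusted p = 0.000773, edgeR). Eif2ak2, the kinase PKR, had 19.9 ± 3.69 CPM in P195A/- and 13.7 ± 1.95 CPM in wild type (SD, n = 3 each), a log2 difference of 0.54 (adjusted p = 0.48, edgeR), and Tarbp2, a partner of Dicer, stood at 0.29 (adjusted p = 0.479, edgeR).

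The products of the pathway, the interferons, were near the limit of detection in every genotype. Of 20 type I and type III interferon genes, 14 were at 0 in all 13 libraries and 6 had any count, with 10.5 estimated counts in all among 237694124 and at most 2.0 in a library. A total of 3 counts, the limit that a count of 0 allows, corresponds to 0.0126 CPM over all libraries for counting error only. The receptor chains Ifnar1, Ifnar2 and Il10rb were measured, and their log2 differences of P195A/- from wild type were -0.03, 0.14 and -0.44, none past the threshold.

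A list of 43 measured interferon-stimulated genes, which holds none of the 8 members, had no gene past the threshold in any comparison (edgeR). In P195A/- against wild type 38 of 43 lay above 0, with a median log2 difference of 0.37 against 0.02 over all genes, and 7 had an unadjusted p under 0.05 in the higher direction, as did 4.58% of all genes. At the same unadjusted threshold 19 were higher and 0 lower in P195A/- against P195A/P195A, and likewise 19 and 0 against P195A/+. Over all genes, 6.82% and 11.5%, respectively, were under it in either direction. In P195A/P195A against wild type 13 of 43 lay above 0, with a median of -0.19 and 8 lower at an unadjusted p under 0.05. In P195A/+ it was 10 of 43, with a median of -0.21 and 5 lower at that threshold. Over all genes, 5.89% in P195A/P195A and 4.48% in P195A/+ were under it in either direction, and the medians were 0.007 and 0.004. The genes of smallest p in P195A/- against wild type were Ifit1, an RNA-binding antiviral effector, Ifi27l2a and Ifi44. Ifit1 stood at 1.14 (5.60 ± 1.06 against 2.54 ± 0.818 CPM, adjusted p = 0.221, edgeR). Ifi27l2a, with few counts, stood at 2.24 (0.899 ± 0.218 against 0.182 ± 0.0837 CPM, adjusted p = 0.233, edgeR). Ifi44 stood at 1.52 with a wide spread (3.59 ± 2.0 against 1.25 ± 0.241 CPM, adjusted p = 0.25, edgeR). The list was chosen with earlier results of these data known, and its direction is no independent evidence.

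**Figure D4:**
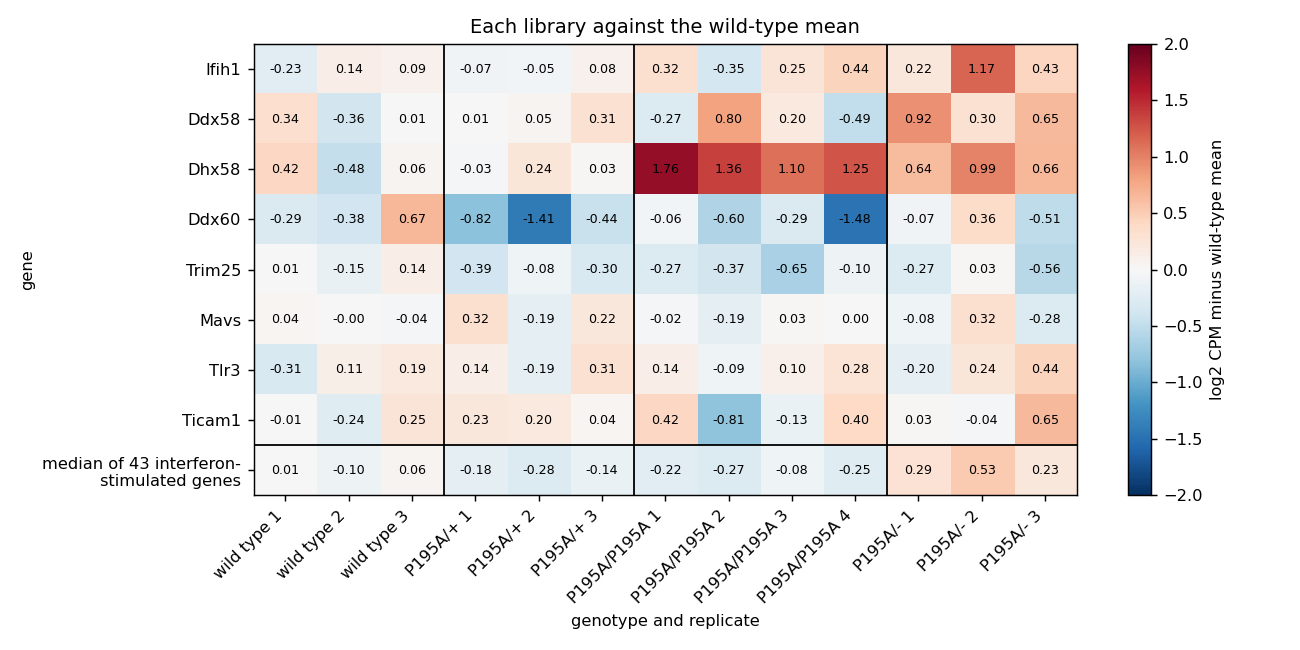
Log2 CPM minus the wild-type mean (colour and printed value, from -2 to 2) for each gene (rows) in each of 13 libraries (columns, grouped by genotype), with the median of 43 interferon-stimulated genes in the last row. The Dhx58 row is at 1.10 to 1.76 in P195A/P195A while the interferon-stimulated median there is -0.27 to -0.08, and in P195A/- the median is 0.23 to 0.53.

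Library by library, the median of the interferon-stimulated genes against the wild-type mean was 0.23 to 0.53 in P195A/- and -0.10 to 0.06 in wild type. In P195A/P195A it was -0.27 to -0.08, and in P195A/+ -0.28 to -0.14. The members followed it to different degrees. Over the 13 libraries, Pearson's r of log2 CPM with that median was 0.68 for Ifih1, 0.63 for Ddx60 and 0.45 for Ddx58. It was 0.18 for Mavs, 0.17 for Trim25, 0.16 for Tlr3, 0.14 for Ticam1 and -0.03 for Dhx58. Dhx58 had instead r = 0.74 with Adar, and both stood highest in P195A/P195A. Between P195A/- and P195A/+ they went opposite ways. In P195A/- the mean of Adar stood below that of P195A/+ (201 against 240 CPM), whereas that of Dhx58 stood above it (1.03 against 0.598 CPM). Ifih1 and Ddx58, the principal cytosolic receptors, had r = -0.13 with each other, and Ifih1 and Tlr3 r = 0.55. These values describe 13 libraries that share genotype, depth and tissue composition.

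The tested genes whose levels followed each member most closely over the 13 libraries, by Pearson's r of log2 CPM, were taken 3 per member. They were Ick, Ttc13 and Gm32647 for Dhx58 (r = 0.853, 0.844 and 0.822), Dsc3, Klhl6 and Zfp651 for Ifih1 (0.958, 0.916 and 0.88), and Mroh1, Pnpla6 and Zfp688 for Ddx58 (0.933, 0.824 and 0.823). For Ddx60 they included Xylb and C1ra, and they were for Trim25 Pdzd2, Teddm2 and Zfp169, for Mavs Npffr1, Acot9 and Yipf4, for Tlr3 Scd1, Ebna1bp2 and Gpkow, and for Ticam1 Gm10778, AC090479.2 and Zfp689, with r from 0.799 to 0.892. No member appears among the genes named for another. They were picked as the highest values among all tested genes with a mean of at least 1 CPM and describe these libraries only.

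The members' own transcripts were also looked up among the deposited RNA editing sites. Of 104199 distinct positions in 17 tables, 0 lay inside the span of any of the 8 genes, against 12 inside Adar, so no editing level could be compared for them. Within 10000 bases of the span, 3 were listed for Mavs, 2 for Ticam1 and 1 for Dhx58. Ifih1, Ddx58, Ddx60, Trim25 and Tlr3 had 0 there. The tables list only the positions that the authors kept, and an absent position does not show absence of editing.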

How the data were processed

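RNA from 13 whole brains was sequenced. The authors deposited 1 table of estimated counts per gene, in which 99.48% of nonzero values are not whole; per the submitters' processing notes, fastp 0.19.5, Salmon and edgeR were used with build mm10, while the index, strand setting and Salmon version were not given in the sources used. Of 54307 gene rows, 51482 were matched by ID to a symbol in GENCODE M21, and rows without one held 0.678% of counts. The deposited editing tables, made with JACUSA2 and a minimum coverage of 3 per the file headers, carry a score per site; only the positions were used.

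After rounding, edgeR 4.0.16 was fitted to the counts (quasi-likelihood, robust, TMM, filterByExpr by genotype; R 4.3.3), with all 13 libraries in 1 fit. SE is the log2 fold change divided by the square root of F, and 95% intervals use the t distribution of that fit. The biological coefficient of variation was 19.1%. The fit was tried on simulated data in which every gene had the same dispersion and only genes over 1 CPM were changed. In P195A/- against wild type, 68.0% of genes with a true log2 difference of 1 were called, and 0.067% of unchanged genes. Dhx58, at 0.581 CPM in wild type, lies below the level of the changed genes, so these shares do not cover it. They are taken over changed genes of all levels over 1 CPM and need not hold for low or variable members such as Ddx60 and Ticam1. Totals of 13539148 to 22399005 per library limit the precision of low genes such as Dhx58 and Ddx60.

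DESeq2 1.42.0, limma 3.58.1 (voom), relative log expression scaling, no count filter, only the 2 genotypes compared, sex, the replicate number as a block and each library left out were tried, and 2 settings were added after seeing the data: 48-day animals only, and without P195A/P195A replicates 2 and 3. Named were the 8 genes, Adar, list genes past the threshold, the 3 of smallest p per list in P195A/- against wild type, and the 3 most alike per gene, of which 1 is not reported here. Of 31 other binders of double-stranded RNA, 47 interferon-stimulated genes and 24 interferons and receptors, 28, 43 and 3 were tested. The genes, lists and markers were chosen with earlier results of these data known. Exon lengths and spans are those of GENCODE M21 on GRCm38, and promoters and their build those of RefSeq. No editing test was made, because no site lay in the genes.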

Additional observations from a re-analysis of the deposited data

How the results depend on the processing

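Where an adjusted p was given, 0 of the 8 genes passed in each of the 6 comparisons, over 680 refits of 48 differences in 22 settings, with a lowest adjusted p of 0.121 (Dhx58 in P195A/P195A against P195A/+ without P195A/P195A replicate 3). DESeq2 gave no adjusted p in 14 of these refits, all 8 genes in P195A/- against wild type and 6 in P195A/- against P195A/+. In the first of these comparisons its unadjusted p ran from 0.0139 (Ifih1) to 0.992 (Mavs), and no gene could be held against the adjusted threshold. The sign was the same in all settings for 25 differences and changed in at least 1 for 23, none of them over 0.243 in size on the log2 scale with all libraries. Dhx58 in P195A/P195A against wild type ran from 1.26 to 1.75, and in P195A/- from 0.59 to 1.08; Ifih1 in P195A/- against wild type ran from 0.32 to 0.84. Over all genes, counts depended on the tool: DESeq2 called 174 genes in P195A/- against wild type and 271 against P195A/+, where edgeR called 7 and 6. The other counts under DESeq2 were 19, 18, 51 and 38, against 2, 10, 8 and 4 with edgeR, for P195A/+ and P195A/P195A against wild type, P195A/- against P195A/P195A, and P195A/P195A against P195A/+. DESeq2 could count only genes to which it gave an adjusted p, so the tools did not adjust over the same set of genes. The cause of the differing counts was not tested. Without the count filter the 6 numbers were 7, 12, 16, 29, 49 and 15, in the order P195A/+, then P195A/P195A, then P195A/-, each against wild type, P195A/- against P195A/P195A, P195A/- against P195A/+ and P195A/P195A against P195A/+.

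Replicate numbers are shared between genotypes. For this check, each genotype's own mean was subtracted from the log2 CPM of every gene. The remainders, not the levels themselves, were correlated between libraries of different genotypes. The remainders of same-numbered libraries correlated at -0.0744 to 0.227 (median 0.0332, 18 pairs, 4 over 0.1). Those of libraries of different number correlated at -0.259 to 0.156 (median -0.0163, 45 pairs, 2 over 0.1). The same-numbered values were thus somewhat higher, and whether the numbers mark a pairing was not tested. Replicate 3 was the male in wild type, P195A/+ and P195A/-, so the number partly follows sex. With the replicate block 0 members passed, and 2, 8, 6, 7, 7 and 2 genes over all genes in the same order; Dhx58 in P195A/P195A against wild type was then 1.53 (adjusted p = 0.643, edgeR). The coverage minima, left-out replicates and block planned for editing sites were not run, since no site lay in the genes. Depth limits Dhx58 and Ddx60, with 6.7 to 36.2 and 14.4 to 89.4 estimated counts per library.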
